A study of Mus musculus with 28 samples.

Results

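Mesothelial genes and the water channel gene Aqp1 were followed across sorted lung cell populations of mice given papain, with or without FK506. The 10 genes were Msln, Upk3b, Upk1b, Wt1, Lrrn4, Krt19, Ezr, Dpp4, Aqp1 and Cygb, out of 22083 genes listed for the alveolar epithelial libraries. They are mesothelial markers and surface genes selected on their measured difference with FK506 in the libraries labelled type 1 alveolar epithelial cells (AEC1), so those differences are given as a description, with no test. For contrast, their values are given in sorted basophils, in innate lymphoid cells of group 2 (ILC2) and in alveolar epithelial cells of type 2 (AEC2). All cells were sorted from lungs of WT C57BL/6 mice aged 8 weeks, and RNA was read from transcript 3' ends with a Lexogen kit on 10 ng of total RNA. Mice of the papain + FK506 groups received FK506 (tacrolimus, an inhibitor of the phosphatase calcineurin) into the peritoneum at 0.2 mg per day, in courses of 3 days separated by 2 days. In the later course they also received papain through the nose, a cysteine protease of papaya that provokes allergic airway inflammation, at 50 µg per day. Mice of the papain groups received papain with no FK506 named in their labels, and the remaining mice were untreated; no vehicle is given for either. AEC1 and AEC2 had 2 libraries per condition, ILC2 had 3 per condition, and basophils had 3 papain + FK506, 3 papain and 1 untreated library. The labels do not say whether libraries of a group came from separate animals, so SEs and p-values measure the spread between libraries only.

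The mesothelium is the flat cell sheet that covers the lung surface and lines the pleural cavity. Its cells carry keratins, as epithelia do, together with mesothelin, uroplakins and the transcription factor Wt1, and their free surface bears microvilli that hold ezrin. Aqp1 forms a water channel that is known in pleural mesothelium and also in the endothelium of lung capillaries.

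The 14 AEC1 markers summed to 864.2 to 1238.9 CPM in the libraries labelled AEC1 (CPM are counts scaled to a common library total). In the libraries labelled AEC2 they summed to more, 2293.0 to 5135.5 CPM. By gene they were split. Of 13 tested, limma called 4 lower in AEC1 (Ager, Aqp5, Cldn18 and Gprc5a), beside 4.43% of all genes tested. It called Cav1, Col4a3 and Pdpn higher, beside 8.25% of all genes tested, with 12.7% called in either direction. Pdpn, a type 1 gene that mesothelium and fibroblasts also express, was at 98.8 to 432.9 CPM in AEC1 libraries and listed at 0 in all 6 AEC2 libraries. It reached the filter of 10 CPM through AEC1 libraries, so its call follows from that filter. Ager, a receptor abundant in type 1 cells, was at 94.5 and 114.4 CPM in AEC1 papain + FK506 libraries, 37.1 and 110.7 CPM in AEC1 papain and 50.5 and 75.9 CPM in AEC1 untreated. In the 6 AEC2 libraries Ager ranged between 1384 and 3505.7 CPM. Rtkn2, another type 1 marker, was listed at 0 in all 6 AEC1 libraries, whereas Dcn, a fibroblast proteoglycan gene, was between 1618.7 and 3494.9 CPM in them. AEC1 below therefore means libraries labelled AEC1. Their depth was 847780 to 975142 reads, so that 1 read was worth 1.03 to 1.18 CPM. The housekeeping gene Gapdh was at 0 in all AEC1 libraries, so a value of 0 says only that a gene was listed at 0. Among AEC2 libraries, papain replicate 2 and untreated replicate 2 carry different treatment labels but nearly the same values. Their recovered reads differed by a chi-square of 2.51 per degree of freedom over 5551 genes, against 30.8 to 166 for the other 54 pairs of AEC libraries tested. Whether they are 1 library is not known, and tests of the 10 genes that use AEC2 libraries are given with and without them. The calls of AEC1 markers above are given only with them.

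In genome build GRCm38.p6 the genes lie as follows: Msln at chr17:25748613-25754378, Upk3b at chr5:136038496-136044993, Upk1b at chr16:38773182-38800203, Wt1 at chr2:105126529-105173614 and Lrrn4 at chr2:132866686-132894010. Krt19 lies at chr11:100140810-100145926, Ezr at chr17:6738131-6782780, Dpp4 at chr2:62330073-62412315, Aqp1 at chr6:55336299-55348555 and Cygb at chr11:116645595-116654504. All 10 are annotated as protein-coding. On the opposite strand, Dpp4 shares 55161 bases with the antisense gene Gm13561 (chr2:62357071-62412231). Cygb shares 780 bases with Prcd (chr11:116653534-116654313). Both genes lie on the minus strand, so their 3' ends are at the low coordinates given above, outside these shared bases. Ezr, also on the minus strand, shares 4 bases with Sytl3 (chr17:6738041-6738044), beyond the low end of its span above. No source used here gives the strand setting of the counting. Reads inside shared bases therefore cannot be told apart, and how many fell there was not examined.

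RefSeq promoter sequence (GRCm38.p6) was at hand for 5 of the 10 genes: Upk3b, Lrrn4, Ezr, Dpp4 and Aqp1. For Lrrn4 and Dpp4 that start lies inside the RefSeq span of the gene given above, so that the bases shown for Dpp4 reach into the span. The 250 bases before the RefSeq start are shown, 5' to 3' on the gene's strand, for the 4 of them whose AEC1 values did not overlap between papain + FK506 and papain. Capitals mark matches, on either strand, to the letters of the TATA box (TATAAA), the GC box (GGGCGG), the AP-1 site (TGANTCA), the core of the NFAT site (TGGAAA), the TEAD site (GGAATG) or the WT1/EGR site (GCGTGGG). NFAT factors are the ones that calcineurin activates.
Dpp4, chr2:62412232-62412481, minus strand: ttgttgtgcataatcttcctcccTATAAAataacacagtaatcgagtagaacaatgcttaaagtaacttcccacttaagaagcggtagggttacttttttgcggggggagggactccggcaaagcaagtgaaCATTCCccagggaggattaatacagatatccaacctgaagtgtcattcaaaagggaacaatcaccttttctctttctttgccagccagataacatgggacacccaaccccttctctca
Upk3b, chr5:136038246-136038495, plus strand: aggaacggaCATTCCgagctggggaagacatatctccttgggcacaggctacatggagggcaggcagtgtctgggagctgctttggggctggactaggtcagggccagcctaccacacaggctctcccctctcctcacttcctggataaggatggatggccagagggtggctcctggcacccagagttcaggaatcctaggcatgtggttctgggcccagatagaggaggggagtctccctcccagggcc
Ezr, chr17:6782781-6783030, minus strand: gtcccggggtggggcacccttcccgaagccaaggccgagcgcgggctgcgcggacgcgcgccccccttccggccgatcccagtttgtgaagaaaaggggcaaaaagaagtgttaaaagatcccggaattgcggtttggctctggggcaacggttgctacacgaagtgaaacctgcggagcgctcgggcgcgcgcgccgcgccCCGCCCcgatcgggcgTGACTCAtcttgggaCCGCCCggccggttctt
Aqp1, chr6:55336049-55336298, plus strand: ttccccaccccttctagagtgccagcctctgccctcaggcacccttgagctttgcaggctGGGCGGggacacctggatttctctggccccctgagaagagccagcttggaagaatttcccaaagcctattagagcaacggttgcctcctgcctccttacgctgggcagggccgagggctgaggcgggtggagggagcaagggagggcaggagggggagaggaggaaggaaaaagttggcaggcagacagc
The TEAD letters were found in 3 of the 5 promoters (Dpp4, Upk3b, Lrrn4) and in 12.6% of all 32851 promoters of that length. The NFAT core was found in 1 of 5 (Lrrn4; 18.6% of all promoters), the AP-1 letters in 1 (Ezr; 6.7%), the GC box in 2 (Ezr, Aqp1; 32.7%), the TATA box in 1 (Dpp4; 12.4%) and the WT1/EGR letters in 0 (4.3%). GC content was 43.6% in the Dpp4 promoter and 60.8, 67.2 and 62.0% in those of Upk3b, Ezr and Aqp1, beside a median of 52.4% over all promoters. A match is a description of these letters only.

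In AEC1 libraries all 10 genes had a lower mean with papain + FK506 than with papain or without treatment. The shares ran between 13.9% of the papain mean (Dpp4) and 78.8% (Upk1b). In these sorted but bulk samples, fewer cells of a type and less RNA per cell cannot be told apart. By gene, the means showed 3 patterns. Msln, Upk3b, Ezr and Dpp4 were at 74.1 to 95.5% of the untreated mean with papain alone and were low in the FK506 libraries. Aqp1, Krt19, Lrrn4 and Upk1b were already at 40.0 to 54.9% with papain alone. Wt1 and Cygb were higher with papain alone than without treatment, at 130% and 177% of the untreated mean, and lowest with FK506. For papain against untreated, their differences in log2(CPM + 2) were 0.37 (SE 0.51) and 0.79 (SE 0.64). The lower papain value of Wt1, 233.7 CPM, was close to the higher untreated value of 230.0 CPM.

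The markers that define mesothelium come first. Msln, which encodes mesothelin, a lipid-anchored surface glycoprotein that binds the mucin Muc16, was at 65.3 and 172.2 CPM in papain + FK506, 410.8 and 588.4 CPM in papain and 685.7 and 663.6 CPM in untreated AEC1 libraries. The 3 conditions did not overlap and increased in that order. The difference in log2(CPM + 2) was -2.34 (SE 0.60) for papain + FK506 against papain and -2.77 (SE 0.60) against untreated. Against papain it was -1.59 without papain + FK506 replicate 1 and -3.08 without replicate 2.

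Upk3b and Upk1b encode uroplakins, proteins of the urothelial surface membrane that are also found in mesothelium; Upk1b is a tetraspanin. Upk3b was at 81.7 and 86.1 CPM in papain + FK506, 232.9 and 181.5 CPM in papain and 214.4 and 219.7 CPM in untreated libraries. Both FK506 libraries were below all others, and the papain pair spanned the untreated pair. Upk1b was at 259.1 and 139.2 CPM in papain + FK506, 157.8 and 347.5 CPM in papain and 560.0 and 555.5 CPM in untreated libraries. Here papain + FK506 and papain overlapped, and both were below untreated. The log2 difference between papain + FK506 and papain was -1.42 (SE 0.55) for Upk3b and -0.45 (SE 0.60) for Upk1b, and without papain replicate 2 that of Upk1b was 0.26. The other uroplakin genes Upk1a, Upk2, Upk3a and Upk3bl were listed at 0 in all 6 AEC1 libraries.

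Lrrn4 encodes a leucine-rich repeat membrane protein. It was at 1023.4 and 1467.4 CPM in papain + FK506, 1110.7 and 2059.5 CPM in papain and 3279.4 and 2496.8 CPM in untreated libraries. As for Upk1b, papain + FK506 overlapped papain, and the log2 difference of -0.45 (SE 0.44) became 0.13 without papain replicate 2. Wt1, a zinc-finger transcription factor of mesothelium and podocytes, was at 116.7 and 120.3 CPM in papain + FK506, 348.4 and 233.7 CPM in papain and 216.6 and 230.0 CPM in untreated libraries. The FK506 pair was the lowest and the papain pair the highest, with a log2 difference of -1.40 (SE 0.51) for papain + FK506 against papain.

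Of the structural genes, Krt19, a type I keratin of simple epithelia and mesothelium, was at 128.4 and 133.3 CPM in papain + FK506, 188.5 and 265.5 CPM in papain and 673.4 and 447.4 CPM in untreated libraries. Ezr encodes ezrin, which ties the actin skeleton to the membrane of microvilli. It was at 280.1 and 365.7 CPM in papain + FK506, 826.9 and 906.2 CPM in papain and 1325.5 and 1004.0 CPM in untreated libraries. In both genes the 3 conditions did not overlap; for Krt19 the larger step was between papain and untreated (log2 difference -1.27, SE 0.51), and for Ezr between papain + FK506 and papain (-1.58, SE 0.38).

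Among the surface and transport genes, Dpp4 had the lowest share left with FK506. It encodes a membrane-bound serine peptidase, CD26, that trims the ends of peptides and chemokines. Dpp4 was at 22.2 and 23.6 CPM in papain + FK506, which is 19 and 20 reads, against 177.9 and 152.7 CPM in papain and 182.9 and 210.5 CPM in untreated libraries. The log2 difference was -2.89 (SE 0.68) against papain and -3.12 (SE 0.68) against untreated. The papain and untreated pairs did not overlap but lay close together, at -0.23 (SE 0.68).

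Aqp1 was lower in both comparisons. It was at 351.2 and 245.3 CPM in papain + FK506, 675.5 and 891.9 CPM in papain and 1948.4 and 1968.9 CPM in untreated libraries. The log2 difference was -1.55 (SE 0.39) for papain + FK506 against papain and -1.32 (SE 0.39) for papain against untreated. For papain + FK506 against untreated it was -2.86 (SE 0.39). Cygb encodes cytoglobin, an intracellular globin best known in fibroblasts and stellate cells. It was at 63.0 and 167.5 CPM in papain + FK506, 437.3 and 734.0 CPM in papain and 330.0 and 331.2 CPM in untreated libraries. The papain pair was the highest and the FK506 pair the lowest, with a log2 difference of -2.59 (SE 0.64) between them, which was -1.84 without papain + FK506 replicate 1 and -3.33 without replicate 2.

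**Figure D1:**
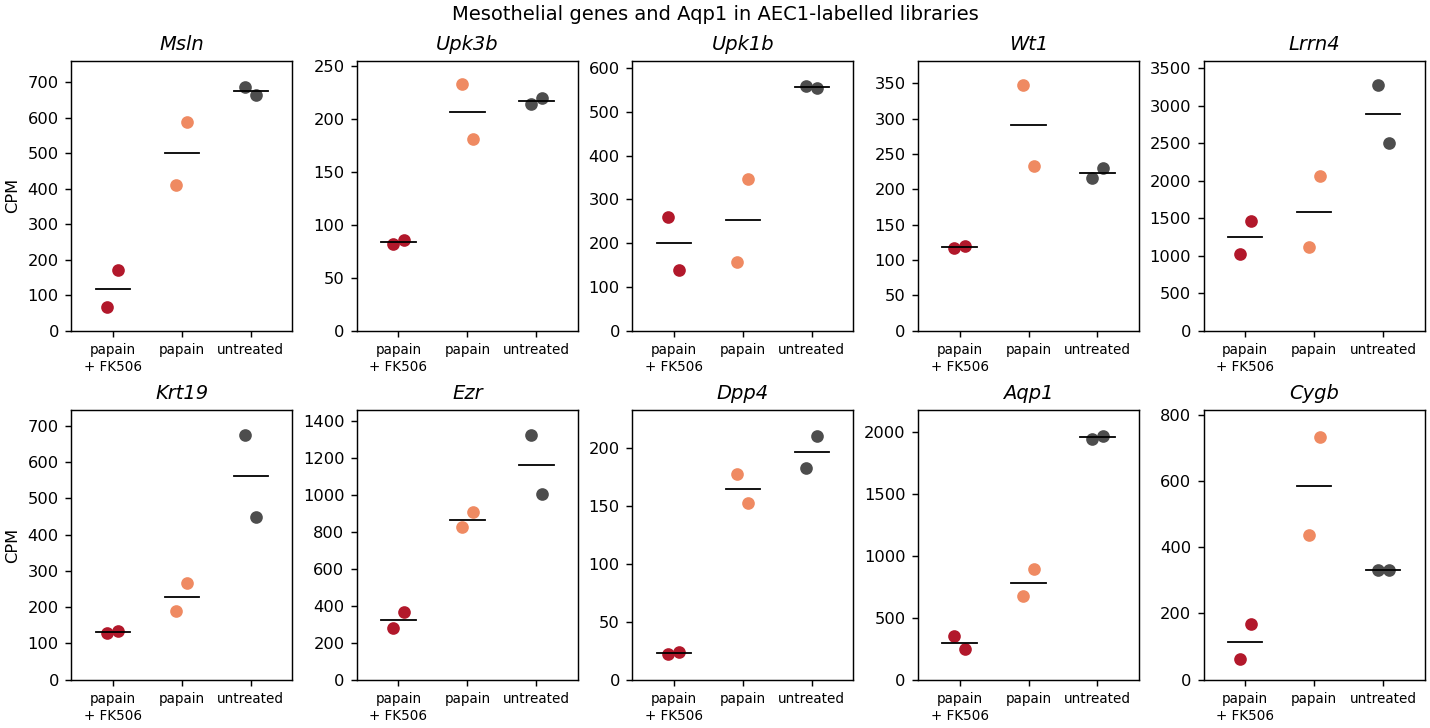
CPM of each gene (vertical axes start at 0) in the 6 AEC1 libraries; each point is 1 library and each bar the mean of 2. The FK506 pair is lowest for 8 genes, and for Upk1b and Lrrn4 it overlaps the papain pair.

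Both papain + FK506 libraries were below both papain libraries for 8 of the 10 genes, beside 12.9% of the 8178 genes tested, and below both untreated libraries for all 10, beside 14.4%. Since those values chose the genes, nothing is read from these counts. With papain alone, 7 genes were below untreated in both libraries (background 14.2%) and Wt1 and Cygb were above (background 19.2%), while Upk3b overlapped. The median difference over the 10 genes was -1.48 for papain + FK506 against papain, -1.88 against untreated and -0.42 for papain against untreated, beside 0.08, 0.30 and 0.16 over all genes tested. Across all genes, limma called 0 (0%), 2 (0.0245%) and 0 (0%) genes at an adjusted p under 0.05 in these comparisons, with 496, 957 and 761 genes at an unadjusted p under 0.05. Without a scaling factor the median of all genes moved by 0.11 for papain + FK506 against papain and by 0.10 against untreated, and all 10 genes stayed below 0 in both. The comparisons share libraries and are set side by side only.

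**Figure D2:**
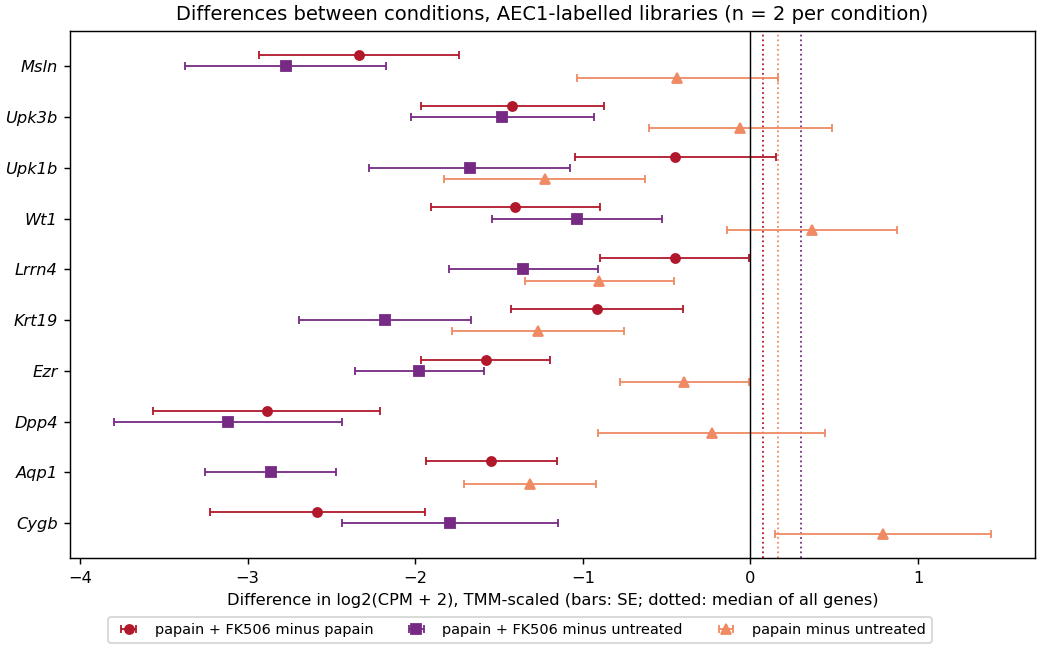
Difference in log2(CPM + 2) after TMM scaling for 3 comparisons of AEC1 conditions, with SE bars (n = 2 libraries each); dotted lines give the median of all genes tested. Dpp4 and Cygb lie farthest left for papain + FK506 against papain, at -2.89 and -2.59, and Cygb and Wt1 lie right of 0 for papain against untreated.

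The genes differed in how closely their AEC1 values ran together. The measure was the root mean square difference of log2 values, each centred on the gene's own mean over the 6 libraries, so that smaller means more alike. It was 0.217 between Upk3b and Wt1, 0.294 between Upk3b and Ezr, 0.387 between Lrrn4 and Krt19 and 0.392 between Krt19 and Aqp1. The least alike pair was Upk1b and Cygb, at 1.184. Among 2850 other genes with a mean of at least 50 CPM, the genes most like Msln were Flvcr2 (0.250), Slc38a1 (0.267), Smpd3 (0.312), Sbsn (0.390) and C1s1 (0.429). For example, Smpd3, a neutral sphingomyelinase gene, was at 19.8 and 69.6 CPM in papain + FK506, 211.8 and 230.7 CPM in papain and 179.6 and 208.2 CPM in untreated libraries. The genes most like Aqp1 were Ghitm (0.271), Ltbp4 (0.278), Txnip (0.306), Mast4 (0.328) and Atf3 (0.331). Ltbp4, a matrix protein that binds latent TGF-beta, was at 70.0 and 74.3 CPM in papain + FK506, 222.4 and 180.4 CPM in papain and 453.4 and 438.2 CPM in untreated libraries.

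A list of 20 other genes known in mesothelium was examined in the same libraries. Of these, 19 could be tested and 18 were below 0 for papain + FK506 against papain, with a median log2 difference of -1.44 beside 0.08 over all genes, and none passed the adjusted threshold. Against untreated, 19 of 19 were below 0 (median -1.79, beside 0.30). With papain alone, 13 of 19 were below 0 (median -0.49, beside 0.16). The list was chosen with earlier results of these data known, and the same libraries had served to choose the genes above. The counts are therefore a description and not independent evidence, and no share of all genes below 0 was set beside them. Calb2, which encodes calretinin, was listed at 0 in all AEC1 libraries, and Bnc1, a zinc-finger factor gene, was the 1 gene above 0 for papain + FK506 against papain, at 0.64 (SE 1.80).

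Within that list, Gpm6a, a membrane glycoprotein gene, was at 257.9 and 461.2 CPM in papain + FK506, 642.7 and 1126.6 CPM in papain and 1398.4 and 831.5 CPM in untreated libraries. Slpi, a secreted inhibitor of leukocyte proteases, was at 161.0 and 456.5 CPM in papain + FK506, 751.8 and 834.5 CPM in papain and 756.4 and 676.2 CPM in untreated libraries. The complement gene C3 was at 1805.2 and 2040.6 CPM in papain + FK506, 2709.5 and 7794.2 CPM in papain and 3410.7 and 3551.4 CPM in untreated libraries. In all 3 the FK506 pair was below the other 4 libraries. For Igfbp6 (an IGF-binding protein) the FK506 pair, at 116.7 and 140.4 CPM, was also below the other 4 libraries. Its papain values were 150.4 and 377.3 CPM (log2 difference -1.04, SE 0.63). Of all genes tested, 12.9% had both FK506 libraries below both papain libraries. Rspo1 (a secreted Wnt agonist) and Gas1 (a GPI-anchored hedgehog co-receptor) had FK506 values that overlapped papain, with log2 differences of -1.12 (SE 0.75) and -0.23 (SE 0.44).

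Genes of proteins that work with ezrin were split in direction. The list of 10 partners had 5 of 9 tested genes below 0 for papain + FK506 against papain, with a median of -0.22. Cd44, a hyaluronan receptor bound by ezrin, was at 707.1 and 522.5 CPM in papain + FK506, 156.7 and 198.9 CPM in papain and 163.9 and 50.6 CPM in untreated libraries, and Podxl, a sialomucin, was listed at 0 in both FK506 libraries, against 27.5 and 14.4 CPM in papain and 121.2 and 163.3 CPM in untreated. These run opposite ways, and neither passed the adjusted threshold in limma (adjusted p = 0.772 and 0.822 for papain + FK506 against papain). Of ezrin's own family, Msn (moesin) was at 346.6 and 714.8 CPM in papain + FK506, 379.1 and 327.0 CPM in papain and 260.4 and 236.9 CPM in untreated libraries, and Rdx (radixin) was at 269.6 and 298.4, 265.8 and 187.6, and 102.1 and 199.0 CPM in the same order. Of the other aquaporins only Aqp5, a water channel of type 1 and gland cells, could be tested; it was listed at 0 and 31.8 CPM in papain + FK506, 50.8 and 4.1 CPM in papain and 47.1 and 74.8 CPM in untreated libraries. In the DPP4 family 4 of 5 tested genes were below 0 for papain + FK506 against papain (median -1.04). Among the globins 2 of 6 could be tested, and neither passed.

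Summed levels of markers of other cell types stand beside these values. Of these lists limma called 1 gene in the AEC1 comparisons, the smooth muscle actin gene Acta2, higher in papain + FK506 than in untreated libraries (adjusted p = 0.0333). It was among 2 genes called of 8178 (0.0245%), a count that moved with the pseudocount and with single libraries left out. The summed level of 16 fibroblast and smooth muscle markers was 11534.7 to 16761.5 CPM in papain + FK506, 7037.6 to 17879.3 CPM in papain and 6260.0 to 8629.6 CPM in untreated AEC1 libraries, and 3 of its 15 tested genes were below 0 for papain + FK506 against papain (median 1.16). The 12 AEC2 markers summed to 2049.1 to 4928.4 CPM in papain + FK506, 1745.7 to 2654.7 CPM in papain and 7132.4 to 10331.0 CPM in untreated libraries. The 11 airway markers summed to 69.6 to 723.6, 219.4 to 221.3 and 655.6 to 1025.8 CPM in the same order, and the 15 leukocyte markers to 102.6 to 191.1, 145.6 to 156.7 and 115.6 to 128.9 CPM. The fibroblast, airway and leukocyte sums overlapped between papain + FK506 and papain, and the AEC2 sums of both were below those of untreated libraries.

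For Aqp1 the endothelial markers are the ones to set beside it. Their sum was 100.3 to 167.5 CPM in papain + FK506, 200.2 to 456.2 CPM in papain and 277.2 to 496.1 CPM in untreated libraries. The highest of them was Kdr, a VEGF receptor gene, at 75.8 and 77.9, 121.8 and 370.1, and 450.1 and 250.7 CPM. The defining endothelial genes Cdh5, Vwf, Tek, Emcn, Tie1 and Gpihbp1 were listed at 0 in all 6 AEC1 libraries, and 13 to 15 of the 18 markers were at 0 in each. The 14 AEC1 markers summed to 1006.1 to 1038.5 CPM in papain + FK506, 864.2 to 1192.3 CPM in papain and 1118.9 to 1238.9 CPM in untreated libraries. The part of these other cell types in the results above was not tested.

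**Figure D3:**
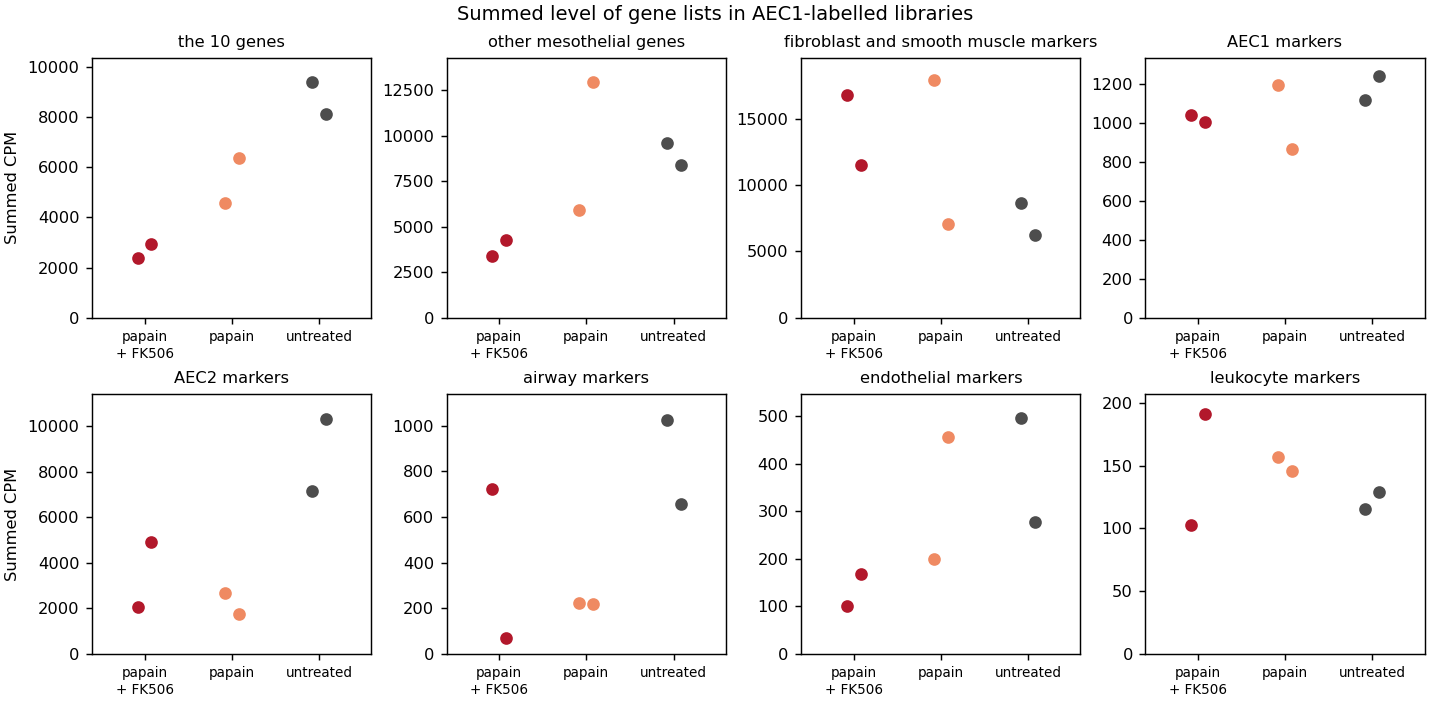
Summed CPM of the 10 genes and of 7 marker lists in each AEC1 library (points; axes start at 0). The 10 genes sum to 2391.1 and 2920.6 CPM with papain + FK506, below all other libraries, while the fibroblast and smooth muscle sum is above that of untreated libraries.

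Between the sorted epithelial populations, 7 of the genes were in effect read in AEC1 alone. Msln, Upk3b, Upk1b, Wt1, Lrrn4, Aqp1 and Cygb reached the filter of 10 CPM through AEC1 libraries, Cygb with 2 AEC2 libraries above it that are the near-identical pair, so their difference follows from that filter and neither a test nor a count of them is given. Lrrn4 ranged between 1023.4 and 3279.4 CPM in AEC1 and between 0 and 1.0 CPM in AEC2, and Aqp1 between 245.3 and 1968.9 CPM in AEC1 and between 0 and 0.8 CPM in AEC2. Wt1 was listed at 0 in all 6 AEC2 libraries.

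Krt19, Ezr and Dpp4 were read in both epithelial populations, and none of them passed in AEC1 against AEC2, where higher calls in AEC1 made up 8.25% of the 9841 genes tested. Ezr was at 784.7 ± 396.8 CPM in AEC1 and 510.2 ± 106.6 CPM in AEC2 (SD, n = 6 libraries each), and the log2 difference of 0.36 (SE 0.26, limma adjusted p = 0.368) stood beside a median of 0.45 over all genes. Without the near-identical AEC2 libraries the difference of Ezr was 0.55 (adjusted p = 0.183). Dpp4 ranged between 22.2 and 210.5 CPM in AEC1 and between 0 and 140.0 CPM in AEC2, and the 2 populations differed by 1.56 (SE 1.15) on the log2 scale (limma, adjusted p = 0.381), or by 2.76 (adjusted p = 0.157) without the near-identical libraries. Krt19 ranged between 128.4 and 673.4 CPM in AEC1 and between 4.0 and 156.6 CPM in AEC2. Its log2 difference of 3.10 (SE 0.95) had a limma adjusted p of 0.0551. Without the near-identical libraries it was 4.33, given with no test, since Krt19 then reached the filter of 10 CPM through AEC1 libraries. Of the AEC2 libraries left, only papain + FK506 replicate 2 was above 10 CPM. In the order of means over all 4 populations, all 10 genes were highest in AEC1. The genes were chosen on their differences in AEC1 libraries. Nothing is therefore read from that order or from the tests of Krt19, Ezr and Dpp4 between AEC1 and AEC2. Basophil and ILC2 values also sum to less per library than AEC1 values, so these levels do not share a common base. Single values from other populations fell within the AEC1 range. These were AEC2 values of Krt19, Ezr and Dpp4, ILC2 values of Aqp1, Krt19 and Dpp4, and basophil values of Aqp1, Ezr and Cygb.

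Within AEC2, the 4 genes that could be tested did not pass in any comparison of conditions, where 0 of 6719 genes (0%) were called. Ezr averaged 551.7 ± 64.6 CPM in papain + FK506, 541.0 ± 71.4 CPM in papain and 438.0 ± 178.2 CPM in untreated AEC2 libraries (SD, n = 2 each). The conditions overlapped throughout, and the log2 difference between papain + FK506 and papain was 0.04 (SE 0.51, limma adjusted p = 0.999), or 0.17 (adjusted p = 0.762) without the near-identical libraries. Krt19 was at 6.0 and 156.6 CPM in papain + FK506, 6.2 and 86.3 CPM in papain and 4.0 and 83.9 CPM in untreated libraries. Dpp4 was at 0.7 and 140.0, 0 and 127.3, and 54.0 and 120.0 CPM in the same order. For these genes the libraries numbered 2 were higher than those numbered 1 in every condition, and SEs of 2.22 and 2.40 on the log2 scale leave no FK506 difference detectable. With 284, 307 and 15 genes at an unadjusted p under 0.05 (papain + FK506 against papain, papain + FK506 against untreated, and papain against untreated), the last comparison rests on the near-identical pair. Leaving that pair out again gave 0 called genes (Dpp4 3.25, adjusted p = 0.704, for papain + FK506 against papain; Krt19 and Cygb no longer passed the filter), with 1 library left for papain and 1 for untreated, assumed to vary like the FK506 libraries.

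In ILC2, Ezr and Aqp1 were the 2 genes with enough values to test. Ezr was at 257.0, 272.0 and 194.0 CPM in papain + FK506, 143.0, 184.0 and 0 CPM in papain and 145.0, 96.0 and 21.0 CPM in untreated libraries. All 3 FK506 values were above the papain values, as for 4.05% of the 6271 genes tested. The log2 difference was 2.58 (SE 1.08, limma adjusted p = 0.910), and 0.52 (adjusted p = 0.824) without the libraries numbered 3, which include the value of 0. Aqp1 was at 0, 49.0 and 127.0 CPM in papain + FK506, 0, 24 and 341 CPM in papain and 11, 72 and 507 CPM in untreated libraries. The library numbered 3 was the highest in each condition, and the difference was 0.11 (SE 1.43, adjusted p = 1.00). Those same libraries had endothelial marker sums of 680.0, 1578.0 and 2172.0 CPM, against 45.0 to 216.0 CPM in the libraries numbered 1 and 2, and untreated replicate 3, with an airway marker sum of 38249.0 CPM, was the 1 ILC2 library with Krt19, at 296.0 CPM. Their part was not tested. Upk3b, Upk1b, Wt1 and Cygb were listed at 0 in all 9 ILC2 libraries, and limma called 1 of 6271 genes (0.0159%), which was none of the 10.

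In basophils, 4 of the genes could be tested. The 1 untreated library, titled control1,2, had 2002 genes above 0, against 6401 to 7894 in the other basophil libraries. Its values are therefore not taken as a baseline. Aqp1 was at 551.6, 404.2 and 98.9 CPM in papain + FK506, 430.2, 4.8 and 42.3 CPM in papain and 0 CPM in the untreated library. The papain values reached into the FK506 range, and the FK506 libraries were 2.45 (SE 1.16) above them on the log2 scale (limma, adjusted p = 0.812). Endothelial markers summed to 2555.1, 1756.0 and 1046.7 CPM, 3572.9, 510.4 and 362.5 CPM, and 3334.2 CPM in the same libraries. Within each condition their order was that of Aqp1, except between the 2 lower papain libraries. Between conditions it was not, as the untreated library had 3334.2 CPM of these markers with Aqp1 at 0. Their part was not tested. Ezr was at 157.1, 111.1 and 231.5 CPM in papain + FK506, 142.8, 47.5 and 118.3 CPM in papain and 412.3 CPM in the untreated library (log2 difference between papain + FK506 and papain 0.72, SE 0.57, adjusted p = 0.859). Cygb (0.8 to 121.3 CPM in papain + FK506, 0 to 31.0 CPM in papain) and Upk1b (0 to 34.0 CPM, 0 to 16.3 CPM) could also be tested, and neither passed. Limma called 0 of 5853 genes (0%), with 354 at an unadjusted p under 0.05. Msln, Upk3b and Wt1 were listed at 0 in all 7 basophil libraries.

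**Figure D4:**
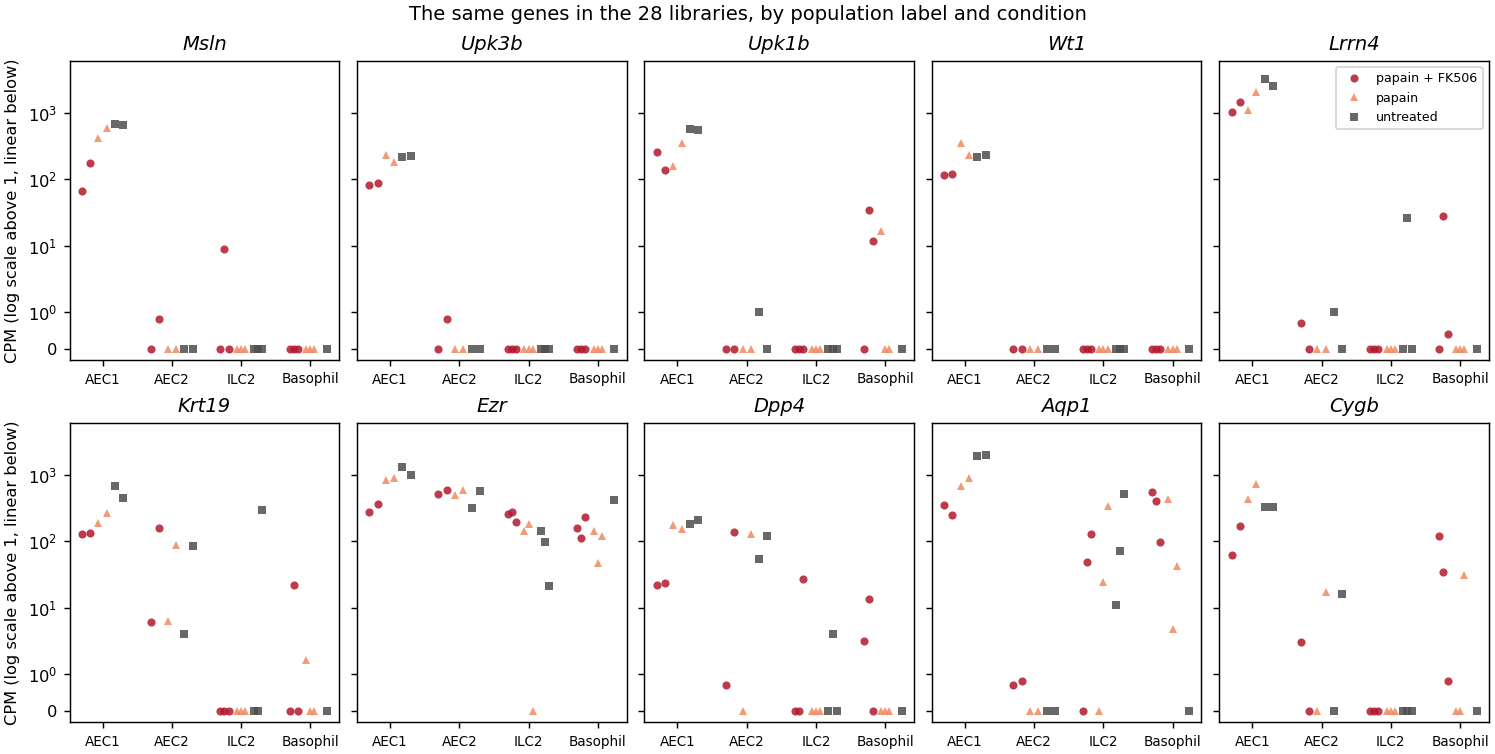
CPM of the 10 genes in all 28 libraries by population and condition, 1 point per library; the vertical axis is logarithmic above 1 CPM and linear below it. Msln, Upk3b and Wt1 stand above 9 CPM only in AEC1, while Ezr is read in all 4 populations.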

How the data were processed

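Builds mm10 and GRCm38.p6 and the tools featureCounts 1.6.0 and STAR 2.7.0c are named, without roles, per the submitters' processing notes. The authors deposited CPM values per gene for AEC1, AEC2 and basophil libraries. The deposited values of the 9 ILC2 libraries and of AEC2 untreated replicate 1 are whole numbers on that scale and were treated as a score, that is, CPM rounded by the authors. In AEC1 and 5 AEC2 libraries 100% of low values were within 0.1 read of whole reads, which gave the depth. For the rounded values depth is unknown, and basophil depth was not used here. Basophil and ILC2 values sum to 519768 to 672357 per library, against 986819 to 992527 in AEC1, so levels set across populations do not share 1 base.

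Genes reaching 10 CPM in at least 2 libraries (3 for ILC2 and basophils) were tested. Values were divided by TMM factors (edgeR 4.0.16), and limma 3.58.1 was run on the log2 of these values plus 2 CPM (trend, two-sided, Benjamini-Hochberg over all genes, threshold 0.05) in R 4.3.3; the 2 CPM understate changes of low genes. ILC2 had a batch term for the code in the file names. The code of the fit was run on simulated counts whose spread was set by hand and not estimated from these libraries. That run gives no power or error rate for these data. Alternatives were other pseudocounts, scalings and filters, a replicate block, left-out libraries and, for AEC1, edgeR's quasi-likelihood test on recovered reads; DESeq2 1.42.0 gave the median-of-ratios factors. The 10 genes are all named. Of the other lists, up to 6 genes with the highest AEC1 mean, and a few others chosen after their values were seen, are named. The genes and lists were chosen with earlier results of these data known.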

Additional observations from a re-analysis of the deposited data

Results flagged for a closer look

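Ezr differed in direction between populations under the same comparison of papain + FK506 with papain. In AEC1 both FK506 libraries were below both papain libraries (log2 difference -1.58), as for 12.9% of all genes tested there. In ILC2 all 3 FK506 libraries were above all 3 papain libraries (2.58), as for 4.05% of the genes tested. The ILC2 difference did not pass (limma, adjusted p = 0.910), and it was 0.52 without the libraries numbered 3, where the papain value was 0. The difference between populations was not tested.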

How the results depend on the processing

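All 10 genes stayed below 0 for papain + FK506 against untreated AEC1 under all 13 alternatives, and for papain + FK506 against papain under all but 1. Without AEC1 papain replicate 2, Upk1b was at 0.255 and Lrrn4 at 0.132; leaving out single libraries they ran between -1.168 and 0.255 and between -1.053 and 0.132. Msln ran between -3.079 and -1.593 and Cygb between -3.333 and -1.837 in that comparison, and between -3.519 and -2.031 and between -2.544 and -1.046 against untreated, the ends being without either papain + FK506 library. For papain against untreated, Upk1b ran between -1.93 and -0.509 and Lrrn4 between -1.486 and -0.303, the ends being without either papain library, and Upk3b ran between -0.124 and 0.051, the higher value without AEC1 untreated replicate 2. Counts of called genes moved as follows, and the cause was not tested. For papain + FK506 against untreated AEC1 (2 genes) they were 0 with a pseudocount of 0.5, 16 with 10 and 29 with edgeR, 0 to 1 with single libraries left out. For papain against untreated AEC1 (0) they were 1 with a pseudocount of 10 and 15 with edgeR. In AEC2 (0 in each comparison) single libraries left out gave 0 to 1, 0 to 5 and 0 to 2. In ILC2 (1) they were 3 with a pseudocount of 10, 2 with no scaling factor, 0 to 2 with single libraries left out and 0 without the libraries numbered 3. In basophils (0) they were 11 with a pseudocount of 10 and 0 to 5 with single libraries left out. Deviations of same-numbered libraries correlated at -0.019 to 0.017 in AEC1, -0.009 to 0.446 in AEC2, where the highest value belongs to the near-identical pair, and 0.051 to 0.235 in ILC2, so the numbers were not taken to pair libraries. With a replicate block AEC1 counts stayed at 0, 2 and 0, and AEC1 against AEC2 gave 1233 calls beside 1248. Krt19 in AEC1 against AEC2 passed with the replicate block (limma adjusted p = 0.0232) and in 7 other alternatives, and its adjusted p was at most 0.126. Among the 7 is the fit without the near-identical libraries, where Krt19 reached the filter through AEC1 alone. Krt19 was chosen on its AEC1 values, which enter all of these fits, so nothing is read from these passes. At about 1 CPM per read, values of a few CPM rest on single reads, and 2 libraries per condition limit what could be called. The alternatives without the near-identical AEC2 libraries and without the ILC2 libraries numbered 3 were chosen after seeing the data.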
